A study of Mus musculus with 6 samples.

Results

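The genes of Nodal signalling were examined in mRNA-seq of D4 EBs, aggregates of mESCs that differentiate for 4 days in suspension and pass through a gastrulation-like stage. The 9 genes were chosen by symbol: the ligand *Nodal*, the convertase *Furin*, the co-receptors *Tdgf1* and *Cfc1*, the receptor *Acvr2b*, the effectors *Smad2* and *Foxh1*, and the antagonists *Lefty1* and *Lefty2*. All 9 were among the 15266 genes listed. Libraries came from 2 lines, both derived from W9.5 mESCs and both differentiated in serum without LIF, with 3 replicates of each. EVX1-Δfs (clone 14) carries small frameshift deletions on both alleles in the homeodomain-coding part of *Evx1*, and its *Evx1as* gene is intact. Del#3 (Evx1/Evx1asΔ2.6kb) lacks 2.6 kb that hold the promoters of *Evx1* and of its antisense lncRNA *Evx1as*. Both lines are therefore without functional EVX1 by design, no WT library was analysed here, EVX1-Δfs is represented by 1 clone, and the labels name no clone for Del#3. Replicates were differentiations set up on different days, so that p-values measure the spread between differentiations of these lines.

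Nodal is a secreted ligand of the TGFβ family that is cut by proprotein convertases such as FURIN and then signals through type I and type II activin receptors, for which it needs an EGF-CFC co-receptor, CRIPTO (*Tdgf1*) or CRYPTIC (*Cfc1*). The receptors phosphorylate SMAD2 and SMAD3, which enter the nucleus with SMAD4 and bind DNA with partners such as FOXH1. *Nodal*, *Lefty1* and *Lefty2* are themselves targets of the pathway, and because LEFTY proteins block the ligand and its co-receptors, they form a feedback loop. In the mouse gastrula high Nodal signalling favours anterior streak and endoderm fates.

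The libraries held 9024579 to 15699124 reads on listed genes. *Evx1* had 2582 to 4023 reads in the EVX1-Δfs libraries and 28 to 48 in the Del#3 libraries, so that each library matched its label. Markers of the tissue were present: the summed normalized counts of 6 primitive streak and early mesoderm genes, *T* and *Eomes* among them, ranged from 6954 to 8764 in EVX1-Δfs and from 5742 to 8864 in Del#3. Those of 6 epiblast and pluripotency genes, *Pou5f1* among them, ranged from 17952 to 26108 and from 16290 to 26919. In bulk RNA, fewer cells of a type and less RNA per cell cannot be told apart. All 9 genes passed the filter on low counts, as did 12891 genes in all, and the lines were tested by limma on log2(normalized count + 1). Fold changes are given as Del#3 against EVX1-Δfs.

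By limma, 0 of the 9 genes were called at a threshold of 0.05 after Benjamini-Hochberg adjustment over the whole table. The share called among all genes was 0.0155%, which is 2 genes, *Evx1* and *Evx1as*. Before adjustment, 0 of the 9 had a p-value under 0.05, against 1.03% of all genes. On the reads recovered from the values, edgeR's quasi-likelihood test called 0 of the 9 genes and 0.0155% of all genes, with 0 of the 9 and 1.12% of all genes before adjustment. DESeq2 called 0 of the 9 and 0.0233% of all genes, with 0 of the 9 and 1.33% before adjustment. The log2 fold changes ran from -0.45 for *Lefty2* to 0.31 for *Furin*, with a median of -0.0070, and the median of all genes tested was 0.0022. A 2-fold change either way fell outside the 95% confidence interval of 7 of the 9 genes, and of 61.1% of all genes. The exceptions were *Lefty2* and *Smad2*, whose intervals reached 0.443-fold and 0.490-fold at their lower ends. The highest library exceeded the lowest by 1.34-fold for *Foxh1* and by 2.89-fold for *Smad2*, the extremes of the 9 genes.

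**Figure D1:**
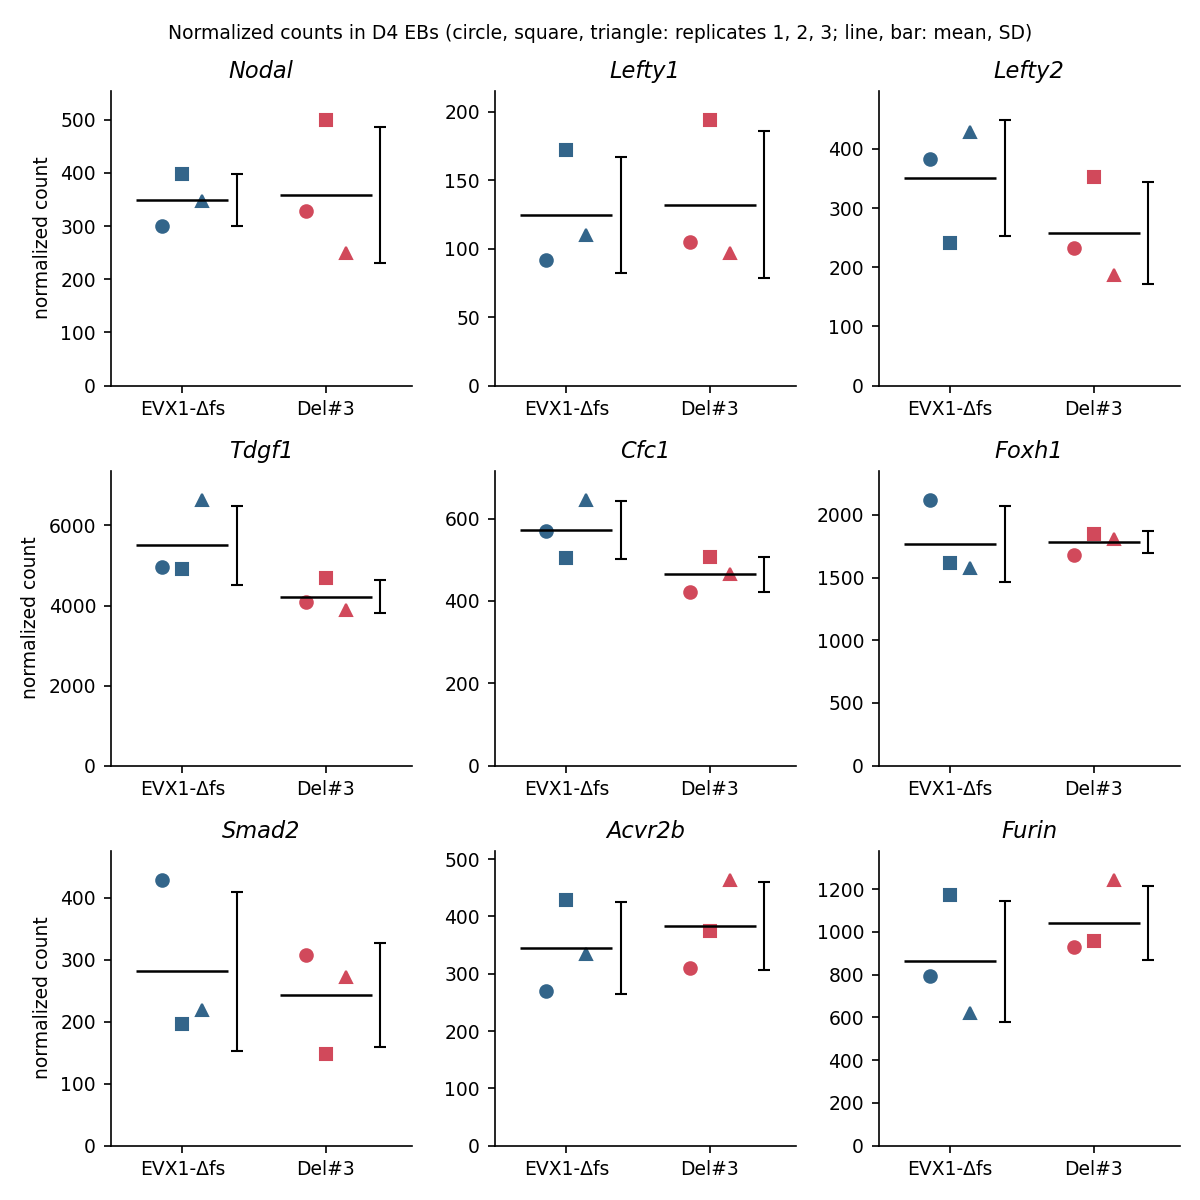
Normalized counts (vertical axes, each from 0) of the 9 genes in the 3 EVX1-Δfs and the 3 Del#3 libraries, with circles, squares and triangles for replicates 1, 2 and 3, a line at the mean and a bar for the SD. *Tdgf1* is the single gene of the 9 whose Del#3 libraries, at 3884 to 4687, all lie below its EVX1-Δfs libraries, at 4916 to 6635.

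**Figure D2:**
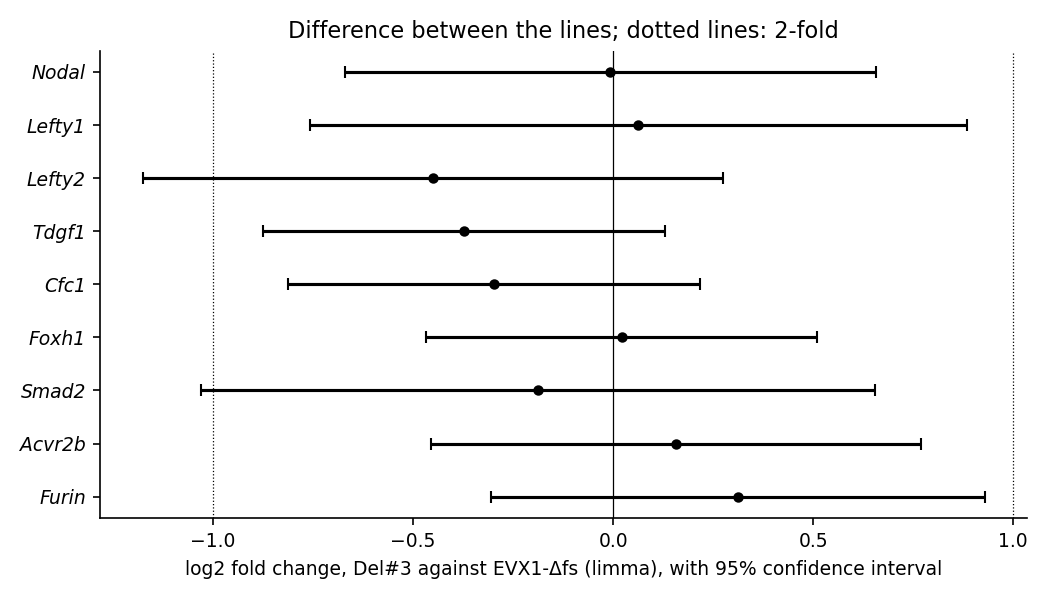
Log2 fold changes of the 9 genes in Del#3 against EVX1-Δfs by limma (horizontal axis) with 95% confidence intervals, and with dotted lines at 2-fold. Every interval crosses 0, and those of *Lefty2* and *Smad2* extend beyond 2-fold at their lower ends.

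*Nodal* (ENSMUSG00000037171.6, chr10:60880720-60888086 of NCBIM37, plus strand, 3 exons) was expressed at nearly equal mean levels in the lines. Given in the order of replicates 1 to 3, here and throughout, EVX1-Δfs had 301, 398 and 346 normalized counts and Del#3 had 329, 499 and 249. Both the highest and the lowest library were Del#3 libraries, and the groups overlapped. Means were 349 ± 48.8 (SD, n = 3) for EVX1-Δfs and 359 ± 128 (SD, n = 3) for Del#3. The log2 fold change was -0.0070 (95% confidence interval -0.67 to 0.66, limma, adjusted p = 1.00), which spans 0.628-fold to 1.58-fold.

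FOXH1 recognises the letters AATCCACA or AATACACA, and matches to them in the loop genes are shown because FOXH1 is the DNA-binding partner through which these genes respond to the ligand. Both strands were searched over the 5000 bases on either side of the annotated start of each of 22380 protein-coding genes. *Nodal* held 4 matches, and 2.98% of all windows held as many. *Lefty2* and *Foxh1* itself held 3 each, as 9.97% of windows did or exceeded. *Smad2* held 2, *Furin* 1, and *Lefty1*, *Tdgf1*, *Cfc1* and *Acvr2b* none, whereas 63.8% of windows held at least 1. The 2 intronic matches of *Nodal* and the 2 upstream matches of *Lefty2* are printed with 30 bases each, on the plus strand of NCBIM37, with the match in capitals:
Nodal intron, chr10:60882036-60882065: gacccggacgcAATCCACAtcttctaatcc
Nodal intron, chr10:60882830-60882859: gattcttgtcaAATCCACAcggtgggggcg
Lefty2 upstream, chr1:182819013-182819042: aaaagtttcctAATCCACAtctgcttcctt
Lefty2 upstream, chr1:182819096-182819125: gggctcctgggAATCCACAtccaggagtct
These 4 were printed as the AATCCACA matches of the 2 genes, and their other 3 matches read AATACACA. A match describes the sequence, and binding was not measured.

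*Furin* (ENSMUSG00000030530.9, chr7:87533471-87550322, minus strand) encodes a convertase that processes many precursors besides Nodal. It had 795, 1172 and 619 normalized counts in EVX1-Δfs and 928, 958 and 1242 in Del#3. Its log2 fold change of 0.31 (standard error 0.28, limma, adjusted p = 1.00) was the highest of the 9 genes. The groups overlapped, since EVX1-Δfs replicate 2 lay above 2 of the Del#3 libraries. *Furin* was higher in Del#3 in replicates 1 and 3, by 0.22 and 1.00 on the log2 scale, and lower in replicate 2, at -0.29.

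The co-receptors were both lower on average in Del#3, without passing the test. *Tdgf1* (ENSMUSG00000032494.8, chr9:110842114-110848662, minus strand), which is known as a gene of pluripotent cells and of the early streak, had 4961, 4916 and 6635 normalized counts in EVX1-Δfs and 4092, 4687 and 3884 in Del#3. The groups did not overlap, Del#3 being the lower throughout. Any such separation of 3 against 3 libraries gives p = 0.1 in a two-sided exact permutation test, so that this p adds nothing to it. Among all genes tested, 1.8% had all Del#3 libraries below all EVX1-Δfs libraries, and 11% were lower in Del#3 for each replicate number, as *Tdgf1* was. The mean fell from 5504 ± 980 (SD, n = 3) to 4221 ± 416 (SD, n = 3), and the log2 fold change was -0.37 (95% confidence interval -0.88 to 0.13, limma, adjusted p = 1.00). The log2 difference between libraries of the same number was -0.28, -0.069 and -0.77, so that replicate 3 contributed most.

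The summed level of 4 of 4 markers of naive pluripotency, *Zfp42*, *Klf4*, *Esrrb* and *Tfcp2l1*, also separated the lines, with 551 to 613 normalized counts in EVX1-Δfs and 358 to 479 in Del#3. The sums of every other marker list, that of the epiblast and pluripotency genes included, overlapped between the lines. None of the 4 naive markers was at 0. The separation came mostly from *Zfp42*, since the groups overlapped for the other 3, with log2 fold changes of -0.14 for *Klf4*, -0.42 for *Esrrb* and 0.34 for *Tfcp2l1*. *Zfp42*, a gene silenced as cells leave the naive state, had 343, 341 and 457 in EVX1-Δfs and 288, 181 and 187 in Del#3 (log2 fold change -0.82, limma, unadjusted p = 0.0156, adjusted p = 1.00). The part of such cells in the difference in *Tdgf1* was not tested. The counts of *Tdgf1* carry a further limit. Of the 1894 stretches of 32 bases in its transcript, 40.5% also occurred elsewhere in the genome, of which 757 lay at chr16:3730371-3732692, where the annotation lists no gene. A read that lies wholly in shared sequence cannot be placed by sequence alone, whereas a longer read that reaches beyond it may be. How the authors' counting treated such reads was not checked here.

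*Cfc1* (ENSMUSG00000026124.3, chr1:34592493-34601156, plus strand) is the other EGF-CFC gene, needed in the embryo for left-right patterning. It had 571, 504 and 645 normalized counts in EVX1-Δfs and 422, 507 and 466 in Del#3. The groups overlapped by a margin of 1 library, as Del#3 replicate 2 lay just above EVX1-Δfs replicate 2. Its log2 fold change was -0.30 (95% confidence interval -0.81 to 0.22, limma, adjusted p = 1.00). None of its 1007 stretches of 32 bases occurred elsewhere, and its coding sequence shared 44.4% of aligned positions with that of *Tdgf1*, so that reads of one are not readily taken for the other.

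The antagonist genes *Lefty2* (ENSMUSG00000066652.5, chr1:182823239-182829234) and *Lefty1* (ENSMUSG00000038793.8, chr1:182865153-182868531) lie close together on the plus strand of chromosome 1, and both have 4 exons. Their coding sequences are 1107 bases long and identical at 91.9% of positions, with 90 differing bases. Within the coding sequence, only reads over differing bases tell the 2 genes apart. The stretch of 60 bases in which they differ most, coding bases 34 to 93, is shown with the differing bases in capitals:
Lefty1: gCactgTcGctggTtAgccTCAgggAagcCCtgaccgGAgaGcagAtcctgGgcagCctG
Lefty2: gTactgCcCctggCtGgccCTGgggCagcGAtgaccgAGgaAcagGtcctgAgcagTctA
Of the stretches of 32 bases in the *Lefty1* transcript, 24.4% occurred within the annotated span of the *Lefty2* gene, introns included. Of those in the longer *Lefty2* transcript, 15.8% occurred within the span of *Lefty1*. Anywhere else in the genome, 26.6% of the stretches of *Lefty2* were found. The split between the genes is uncertain for reads that lie wholly in shared sequence.

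*Lefty1*, which is expressed in anterior visceral endoderm and later along the midline of the embryo, had 91.7, 172 and 109.9 normalized counts in EVX1-Δfs and 105, 194 and 97.2 in Del#3. Replicate 2 was the highest in both lines, and the groups overlapped over most of their range. The log2 fold change was 0.063 (95% confidence interval -0.76 to 0.88, limma, adjusted p = 1.00). *Lefty1* had 91 to 167 reads per library, the fewest of the 9 genes except in Del#3 replicate 2, where *Smad2* had 128.

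*Lefty2*, a marker of nascent mesoderm and of the left lateral plate, had 382, 240.3 and 429 normalized counts in EVX1-Δfs and 233, 353 and 187 in Del#3. It was lower in Del#3 in replicates 1 and 3, by -0.71 and -1.19 on the log2 scale, and higher in replicate 2, by 0.55. Means were 350.4 ± 98.2 (SD, n = 3) for EVX1-Δfs and 258 ± 85.8 (SD, n = 3) for Del#3. Its log2 fold change of -0.45 (standard error 0.33, 95% confidence interval -1.18 to 0.27, limma, adjusted p = 1.00) was the lowest of the 9 genes.

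Ratios between members were taken within each library, where scaling cancels. They are ratios of normalized counts without correction for gene length, so they serve to compare the lines and are not proportions of RNA molecules. The ratio of *Lefty2* to *Lefty1* was 4.17, 1.39 and 3.90 in EVX1-Δfs and 2.21, 1.82 and 1.92 in Del#3. EVX1-Δfs thus held both the highest and the lowest ratio, and the Del#3 libraries lay close together between them (two-sided exact permutation test of log2 ratios, p = 0.4). The difference in log2 ratio, -0.52, was -1.03 without EVX1-Δfs replicate 2, and -0.24 and -0.28 without replicates 1 and 3 of that line. The sum of *Lefty1* and *Lefty2* over *Nodal*, antagonist against ligand, was 1.57, 1.04 and 1.56 in EVX1-Δfs and 1.03, 1.10 and 1.14 in Del#3 (two-sided exact permutation test, p = 0.3). In this ratio EVX1-Δfs replicate 2 fell among the Del#3 values, and the difference in log2 ratio, -0.33, was -0.53 without it and -0.22 and -0.23 without replicates 1 and 3 of that line. *Cfc1* over *Tdgf1* was 0.115, 0.103 and 0.0972 in EVX1-Δfs and 0.103, 0.108 and 0.120 in Del#3, a narrow range with interleaved groups (two-sided exact permutation test, p = 0.5). With 3 libraries per line, the smallest p these tests allow is 0.1, and adjusted over the 3 ratios by the Benjamini-Hochberg method each p-value was 0.5.

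**Figure D3:**
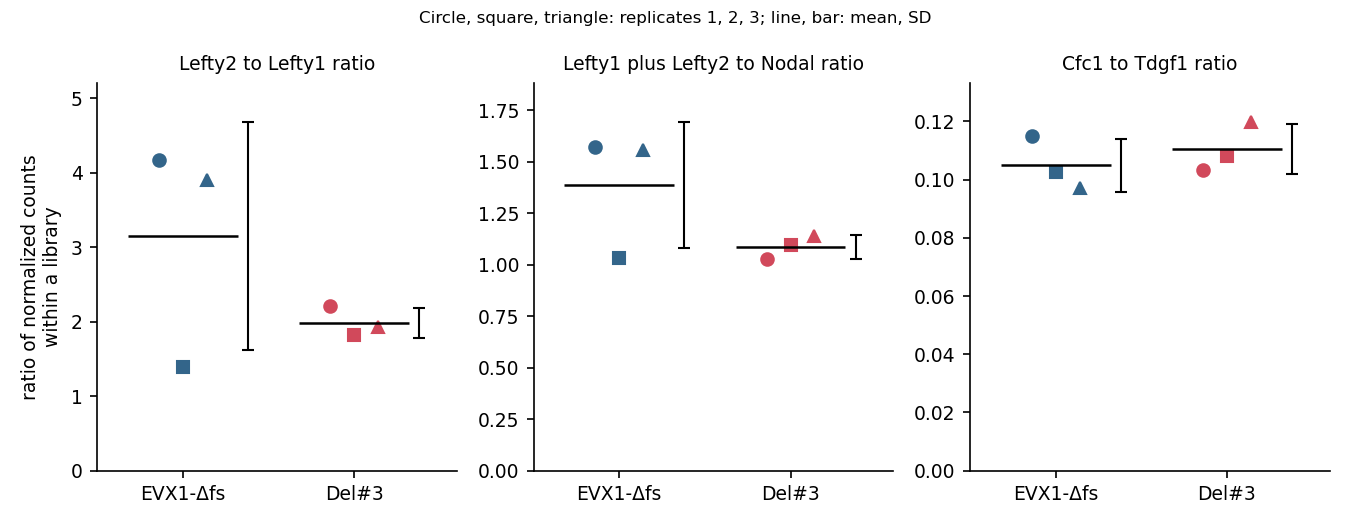
Ratios of normalized counts within a library (vertical axes, each from 0) for *Lefty2* to *Lefty1*, *Lefty1* plus *Lefty2* to *Nodal*, and *Cfc1* to *Tdgf1*, with circles, squares and triangles for replicates 1, 2 and 3, a line at the mean and a bar for the SD. In the first 2 panels EVX1-Δfs replicates 1 and 3 stand above all other libraries, and replicate 2 of that line does not.

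*Acvr2b* (ENSMUSG00000061393.6, chr9:119311562-119342619, plus strand) encodes a type II receptor for Nodal and activin. It had 271, 429 and 334 normalized counts in EVX1-Δfs and 311, 374 and 464 in Del#3, with interleaved groups and a log2 fold change of 0.16 (95% confidence interval -0.46 to 0.77). *Smad2* (ENSMUSG00000024563.9, chr18:76401234-76465385, plus strand), the signal transducer, had 429, 197 and 219 in EVX1-Δfs and 308, 149 and 272 in Del#3. Replicate 1 was the highest library of *Smad2* in both lines and replicate 2 the lowest. Its log2 fold change was -0.19, with the widest standard error of the 9 genes, 0.38. *Foxh1* (ENSMUSG00000033837.4, chr15:76498714-76500378, minus strand) had 2118, 1613 and 1578 in EVX1-Δfs and 1683, 1851 and 1809 in Del#3. All 3 Del#3 libraries of *Foxh1* lay inside the range of EVX1-Δfs, and its interval was the narrowest, from -0.47 to 0.51 around a log2 fold change of 0.021. By limma the adjusted p-value of each of these 3 genes was 1.00.

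Levels were compared between genes over all 6 libraries as RPKM, which divides reads by exon length and by the reads of the library on listed genes. *Tdgf1* stood highest at 237 ± 39.1 RPKM (SD, n = 6), above 98.5% of the genes with a known exon length, followed by *Foxh1* at 128 ± 16.8 and *Cfc1* at 47.0 ± 5.70. The ranges of these 3 genes overlapped neither each other nor that of the next gene. *Acvr2b* at 19.5 ± 3.91 and *Nodal* at 15.8 ± 3.40 came next, then *Lefty2* at 10.9 ± 3.14, *Furin* at 9.83 ± 2.54, *Smad2* at 7.05 ± 2.89 and *Lefty1* at 6.84 ± 2.11. Each of these 6 genes overlapped its neighbour in that order, so that neighbouring places are not separated by the data. Places further apart can be, since the lowest *Acvr2b* library, at 14.9, lay above the highest of *Lefty2*, at 14.6, and the lowest of *Nodal*, at 11.3, above the highest of *Lefty1*, at 9.76. Thus RNA of the co-receptor *Tdgf1* was far more abundant than that of the ligand in all 6 libraries, while the mean levels of both antagonists were lower than the ligand's, with overlap between *Lefty2* and *Nodal*. For *Furin* the annotated exons sum to 9178 bases, while its transcript with the longest coding sequence has 4332. Per kilobase of that transcript *Furin* had 20.8 ± 5.38 (SD, n = 6), and with every gene taken per kilobase of such a transcript its mean moved from place 7 to place 4, above *Acvr2b* at 20.2 and *Nodal* but with overlapping ranges.

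How the genes varied among the libraries differed from gene to gene. For *Lefty1*, 95.2% of the variation in log2 value, taken as a sum of squares, lay between replicate numbers and 0.587% between the lines, and for *Smad2* the shares were 82.8% and 3.71%. *Nodal* and *Acvr2b* also varied mostly by replicate number, with 70.6% and 64.6%. For *Tdgf1* and *Cfc1*, by contrast, 56.6% and 57.5% lay between the lines, and 8.04% and 11.6% between replicate numbers. In *Lefty2* 72.4%, in *Foxh1* 76.1% and in *Furin* 62.2% lay in neither, that is, in changes of the difference between the lines from one replicate number to the next. Over all genes tested the median shares were 6.70% between the lines and 64.4% between replicate numbers. The sources do not state that equal numbers share a day, and these shares are a description, with 1 degree of freedom between lines and 2 between replicate numbers. Counting error was smaller than the coefficient of variation of either line for all 9 genes. For *Nodal* it was 4.68% to 6.55% of the value per library, against a coefficient of variation of 14.0% in EVX1-Δfs and 35.6% in Del#3.

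**Figure D4:**
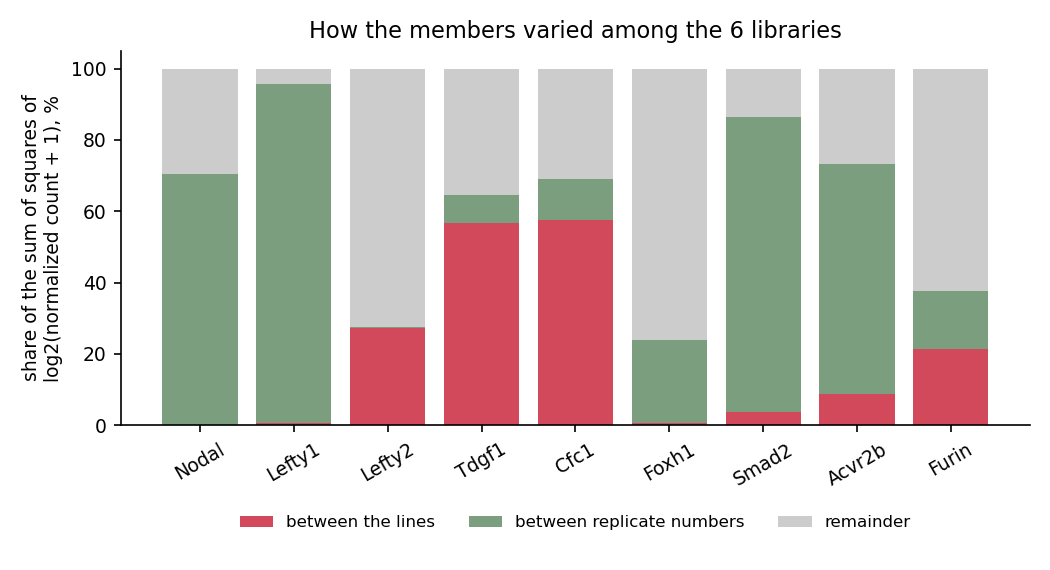
Variation of log2(normalized count + 1) among the 6 libraries (vertical axis, % of the total sum of squares) that lay between the lines, between replicate numbers and in the remainder, for each of the 9 genes. The share between replicate numbers is highest for *Lefty1* at 95.2%, and that between the lines is highest for *Cfc1* at 57.5% and *Tdgf1* at 56.6%.

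The other genes of the pathway were taken from a list of 36 genes by role, of which 32, the 9 members included, were measured and tested. *Gdf1*, *Inhba*, *Inhbb* and *Acvr1c* were not analysed here. By limma, 0 of the 32 were called, and 1 had an unadjusted p-value under 0.05, against 1.03% of all genes. DESeq2 and edgeR gave the same counts, 0 and 1. That gene was *Skil*, whose product SnoN is a corepressor of SMADs and is itself a target of the pathway. *Skil* had 678, 409 and 417 normalized counts in EVX1-Δfs and 1101, 635 and 841 in Del#3 (log2 fold change 0.78, 95% confidence interval 0.13 to 1.44, limma, unadjusted p = 0.0239, adjusted p = 1.00). Each Del#3 library exceeded the EVX1-Δfs library of its number, although Del#3 replicate 2 lay below EVX1-Δfs replicate 1. The median log2 fold change of the 32 genes was -0.036, against 0.0022 for all genes.

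By role, the 23 other genes tested had these values. Among ligands and convertases, *Gdf3*, a relative of Nodal that uses the same co-receptors, had a log2 fold change of -0.18, and *Pcsk6*, the other convertase, had -0.024. The type I receptor *Acvr1b* had 0.22 and the type II receptor *Acvr2a* 0.67, with an interval from -0.10 to 1.45. All 5 antagonists overlapped between the lines. *Cer1*, a secreted inhibitor of Nodal and BMP, had 1816, 2270.1 and 2580.4 normalized counts in EVX1-Δfs and 1448, 2083 and 1972 in Del#3. *Dand5* had a log2 fold change of -0.23, and *Fst*, which binds activin, had -0.28. The other SMADs ranged from -0.12 for *Smad4* to 0.22 for the inhibitory *Smad7*, with *Smad3* at 0.16. Among nuclear factors, the corepressor genes *Tgif1*, *Tgif2* and *Ski* ranged from -0.048 to 0.18, *Drap1*, which restrains FOXH1, had -0.14, and *Trim33* had 0.71, with an interval from -0.10 to 1.53.

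The 7 target genes, which respond to Nodal in streak and endoderm, had a median log2 fold change of -0.12 and ranged from -0.35 for *Sox17* to 0.43 for *Pmepa1*. *Sox17*, an endoderm factor, was the single target whose lines did not overlap, and 1.8% of all genes had, like it, all Del#3 libraries below all EVX1-Δfs libraries. It had 772, 800.5 and 715 normalized counts in EVX1-Δfs and 518, 637 and 647 in Del#3 (limma adjusted p = 1.00). Its p of 0.1 in a two-sided exact permutation test follows from the separation itself. *Gsc* at -0.089, *Foxa2* at 0.011, *Lhx1* at -0.12, *Eomes* at -0.23 and *Mixl1* at -0.24 lay between. A 2-fold change either way fell outside the interval of 6 of these 7 genes. Summed levels of 5 markers of anterior streak, definitive endoderm and anterior visceral endoderm ranged from 3429 to 4349 normalized counts in EVX1-Δfs and from 2760 to 4049 in Del#3.

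**Figure D5:**
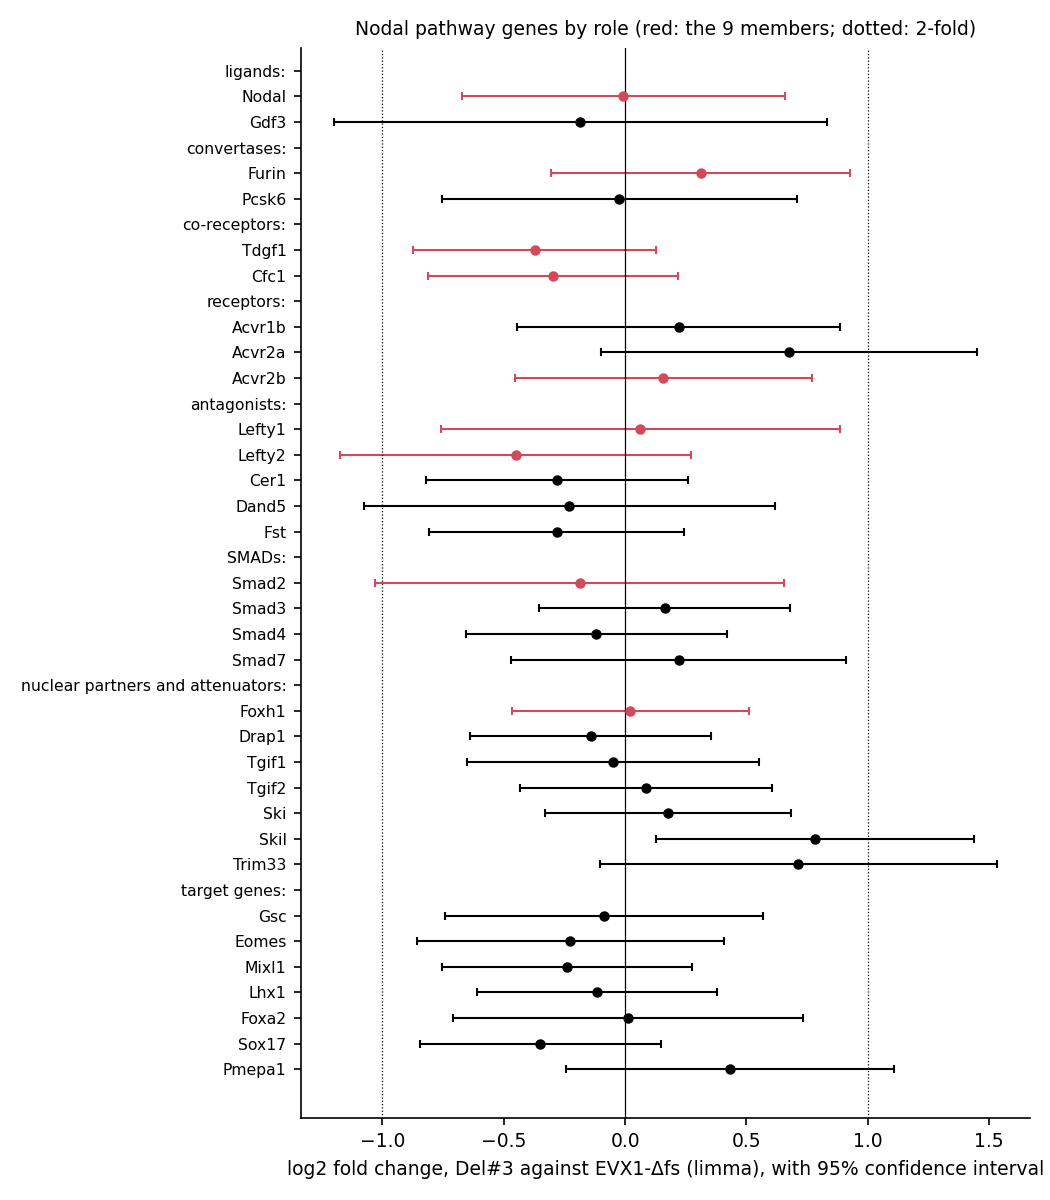
Log2 fold changes in Del#3 against EVX1-Δfs by limma (horizontal axis) with 95% confidence intervals for the 32 tested genes of the Nodal pathway list, grouped by role, with the 9 members in red and dotted lines at 2-fold. *Skil* is the gene whose interval, 0.13 to 1.44, excludes 0.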

How the data were processed

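Per the methods of the study, reads from an Ion Proton sequencer were aligned to mm9 by TopHat2 followed by TMAP, and the authors obtained counts with HTSeq and ran DESeq2, both at default settings. Versions are not given in the sources used here. The authors deposited a signal for each gene and library, namely the count divided by a size factor. All values (100%) of a library came out as whole numbers of 1 step (tolerance 0.01), and division by that step recovered 9024579 to 15699124 reads per library.

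The main test, run in R 4.3.3, was that of limma 3.58.1 on log2(value + 1) with a mean-dependent prior, over genes that passed filterByExpr of edgeR (version 4.0.16, minimum count 10) on recovered reads, with Benjamini-Hochberg adjustment over all 12891 genes and a threshold of 0.05. DESeq2 (version 1.42.0) and edgeR's quasi-likelihood test on recovered reads were alternatives, besides other scalings, pseudocounts of 0.1 and 5, no filter, a replicate block, and leaving out each library. The fits were tested on simulated data. Per the study's methods, lines compared with each other were differentiated on a shared day and replicates on separate days, but the sources do not state that equal replicate numbers mark a shared day, and the main test had no block.

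Positions and exon lengths are those of the GENCODE annotation of NCBIM37, the assembly known as mm9. The searches for shared stretches and FOXH1 letters in that build were added after the values were seen. Genes named were the 9 members, *Evx1* and *Evx1as*, the genes of the pathway list, markers beside a result, and the 3 genes closest in pattern to *Nodal*, *Lefty1*, *Lefty2*, *Tdgf1*, *Cfc1* and *Foxh1*. The members and lists were chosen with earlier results of these data known. In addition, 1 further target gene and 1 sequence are not reported here.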

Additional observations from a re-analysis of the deposited data

How the results depend on the processing

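With 15 alternatives for each of the 9 genes, 0 of the 135 refits by limma, edgeR or DESeq2 gave an adjusted p-value under 0.05, and the lowest was 0.992. *Lefty2*, *Tdgf1*, *Cfc1* and *Furin* kept their direction in all 15, with log2 fold changes from -0.70 to -0.25, -0.45 to -0.23, -0.39 to -0.21 and 0.099 to 0.56. The log2 fold change of *Nodal* changed sign with edgeR (0.058), DESeq2 (0.044), TMM factors (0.014) and total reads (0.026), and ranged from -0.27 to 0.23 as each library was left out. When each library was left out, the sign also changed for *Lefty1* (-0.25 to 0.32), *Foxh1* (-0.054 to 0.16), *Smad2* (-0.40 to 0.16) and *Acvr2b* (-0.0040 to 0.33), and the cause was not tested. Over all genes, limma called 2 without the replicate block and 3 with it, and DESeq2 called 3 without it and 9 with it, where the cause was not tested and no gene of the pathway list was among them. With the block in limma, 0 of the 9 genes, 3 of the 32 pathway genes (*Skil*, *Acvr2a* and *Trim33*) and 596 of all genes had an unadjusted p-value under 0.05. Without the block 133 of all genes did, fewer than a threshold of 0.05 gives on average where nothing differs, so the main test was cautious. With the block, a 2-fold change fell outside the interval of 8 of the 9 genes, *Smad2* included, and of 76.2% of all genes. *Lefty2* was then the exception. Deviations from the line's mean correlated across genes at 0.74, 0.32 and -0.053 between libraries numbered 1, 2 and 3, and at 0.42 between EVX1-Δfs replicate 3 and Del#3 replicate 2, so that the numbers were not taken to pair the samples. The ratios kept their direction in each alternative. Reads were fewest for *Lefty1*, where counting error was 7.74% to 10.5% of the value per library. The coefficients of variation in the lines were 33.9% and 40.6%, so that counting error was the smaller part of the spread within a line.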

Other observations

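Genes whose pattern over the 6 libraries was closest to that of a member were found by the root mean square difference of centred log2 values, among the 9123 genes with a mean of at least 100 normalized counts. For *Nodal* these were *Dact2*, *Prkcz* and 1110007C09Rik, with differences of 0.053, 0.070 and 0.089. *Dact2* had 108, 148 and 124 normalized counts in EVX1-Δfs and 132, 187 and 95.1 in Del#3, so that, as for *Nodal*, Del#3 replicate 2 was the highest and Del#3 replicate 3 the lowest. Among the other members *Lefty1* was the closest to *Nodal*, at place 122 with a difference of 0.19, and *Lefty2* was at place 4653 with 0.42.

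For *Lefty1* the closest were *Tmem59l*, *Hexa* and *Crmp1*, at 0.10, 0.10 and 0.11, and for *Lefty2* they were *Nefl*, *Glrx* and *Rpp40*, at 0.13, 0.15 and 0.16. *Lefty1* and *Lefty2* were far apart from each other, with a difference of 0.58. *Cfc1* was at place 12 for *Tdgf1*, with a difference of 0.10, after *Dscr3* at 0.055, *Rnf5* at 0.081 and *Rpl24* at 0.084. The closest to *Cfc1* were *Tsg101*, *Mphosph6* and *B3gnt2*, at 0.046, 0.053 and 0.055, and to *Foxh1* they were *Tmem55b*, *Rab40c* and *Cox15*, at 0.056, 0.058 and 0.058. The 6 libraries come from 2 lines, and the closest were picked from many, so these are descriptions of likeness in these libraries.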
